A study of Mus musculus with 8 samples.

Results

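Mesothelial keratin and uroplakin genes are 9 genes that mark the mesothelium, the thin epithelial sheet that covers the organs and fat pads of the body cavities: Upk1b, Upk3b, Msln, Krt7, Krt8, Krt18, Krt19, Wt1 and Lrrn4. They were taken by exact gene symbol from the probe annotation, a rule that uses no measured value, and all 9 of the 9 listed were measured, each by 1 probe, among 16504 genes with a probe of their own. At day 14 of feeding with CLA (conjugated linoleic acid, isomers of the common dietary fatty acid linoleic acid), the surface proteins Upk1b, Msln and Upk3b and the keratins Krt19 and Krt7 lay below the controls fed linoleic acid (LA) on all 4 arrays. Lrrn4 was also below 0 on all 4, with array 3 far below the others. The keratin pair Krt8 and Krt18 and the transcription factor Wt1 had mean ratios near 0. The arrays of Krt18 ran from −0.84 to 0.41 and those of Wt1 from −0.44 to 0.54.

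The tissue was epididymal fat of polygenic obese mice, a model whose obesity rests on many genes. Each of 8 arrays with 2 dye channels set RNA pooled from 4 or 5 CLA-fed mice directly against RNA pooled from 4 or 5 LA-fed mice, with 4 arrays at day 14 of the trial and 4 at day 5. On both days the dye of the CLA pool was Cy5 for arrays 1 and 2, and Cy3 for arrays 3 and 4. The labels do not say whether any pool was used on several arrays. The p-values therefore speak of the spread among these arrays, which may be technical, and the number of arrays limits the precision. Age, sex and dose were not among the labels.

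Values are log2 ratios, CLA over LA, so a value below 0 means less RNA in the CLA pool. That direction is likely and not stated: CLA was the treatment, and probes with a strong dye bias changed sign between the 2 dye orientations, which is the pattern of swapped arrays that the authors had already turned. Of 473 unnamed probes with such a signal, 472 were below 0 on all 4 arrays with CLA in Cy5 and above 0 on the other 4. These probes were picked for a contrast between the dye orientations over 2 log2 units, so their change of sign follows largely from that choice. By comparison, 1 probe had a mean over 2 log2 units on both days. Arrays of the same day correlated at −0.61 to 0.03 (median −0.36) between dye orientations, and at 0.22 to 0.72 within an orientation. The arrays of a day thus differed by dye, and which reading of arrays 3 and 4 this favours was not tested. If the ratios were LA over CLA, all signs given here would be reversed. Were arrays 3 and 4 still to be turned, the median of the 9 genes would be 0.03 at day 14 and 0.20 at day 5, with 0 and 1 of the 9 called beside 12.7% and 13% of all genes. A ratio holds no level, so whether these genes stood above background in this fat, and hence whether mesothelium was present in every pool, could not be examined.

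Mesothelial cells carry the keratins of simple epithelia, which assemble from a type II and a type I partner: Krt8 pairs with Krt18, and Krt7 mostly with Krt19. Upk1b is a tetraspanin and Upk3b a membrane glycoprotein that are best known from the bladder lining, and Msln (mesothelin) is a glycoprotein anchored to the cell surface. Wt1 is a zinc finger transcription factor of the mesothelium of visceral fat and of some of its stromal cells. Krt7, Krt8, Krt18 and Krt19 are also made by the duct epithelium of the epididymis, which lies against this fat pad.

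Upk1b had the lowest mean ratio of the 9 at day 14 as the arrays were read. With arrays 3 and 4 turned its day 14 ratio would be 0.24, and Krt18 would be lowest at −0.36. The log2 ratios of Upk1b, as read, were −0.49, −1.27, −1.79 and −0.95 on day 14 arrays 1 to 4, against 0.06, −0.22, −1.06 and 0.09 on day 5 arrays 1 to 4. All 4 day 14 arrays were below 0, and at day 5 array 3 stood apart from values near 0. The day 14 mean was −1.13 ± 0.54 (SD, n = 4 arrays), or 2.18-fold lower in CLA pools, and the day 5 mean was −0.28 ± 0.54 (SD, n = 4). In limma's fit of all 8 arrays (day means and 1 dye term), the day 14 ratio had an unadjusted p = 0.00113 and an adjusted p = 0.242. The study measured bulk tissue, where fewer mesothelial cells and less of these RNAs per cell cannot be told apart.

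Msln and Upk3b followed each other from array to array. Msln stood at −0.63, −1.28, −1.40 and −0.78 on the day 14 arrays, against −0.97, −0.54, −1.47 and 0.62 on the day 5 arrays. Upk3b stood at −0.58, −1.34, −1.10 and −0.42 at day 14, against −0.81, −0.29, −1.71 and 0.88 at day 5. Both were below 0 on every array except day 5 array 4, where both were above it. Their day 14 means were −1.02 ± 0.37 for Msln, 2.03-fold lower, and −0.86 ± 0.43 for Upk3b, 1.81-fold lower (SD, n = 4). In the fit of all arrays Msln had an unadjusted p = 0.0118 (adjusted p = 0.365) and Upk3b an unadjusted p = 0.0501 (adjusted p = 0.512).

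With the dye term removed, the ratios of Upk3b and Msln correlated with r = 0.97 over the 8 arrays, a description over arrays that share tissue, platform and dye design. By r with Upk3b, Msln ranked at place 16 of 16503 genes, and Upk1b, at r = 0.76, at place 1750. The adipocyte marker list had array medians of −0.30, −0.50, −1.10 and −0.66 at day 14, and −0.95, 0.35, −1.65 and 0.70 at day 5, of the same sign as both genes on all arrays but day 5 array 2. At day 5 array 4 all 11 measured adipocyte markers were above 0, and at day 5 array 3 only 1 was. Adipoq, the adipocyte hormone adiponectin, stood at 0.70 on array 4 and at −2.55 on array 3. The 11 endothelial markers had day 5 medians of −0.83, −0.28, −0.75 and 0.74, and 9 of them were above 0 on array 4. The part of the adipocyte and endothelial share of each pool in the ratios of Upk3b and Msln was not tested.

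**Figure D1:**
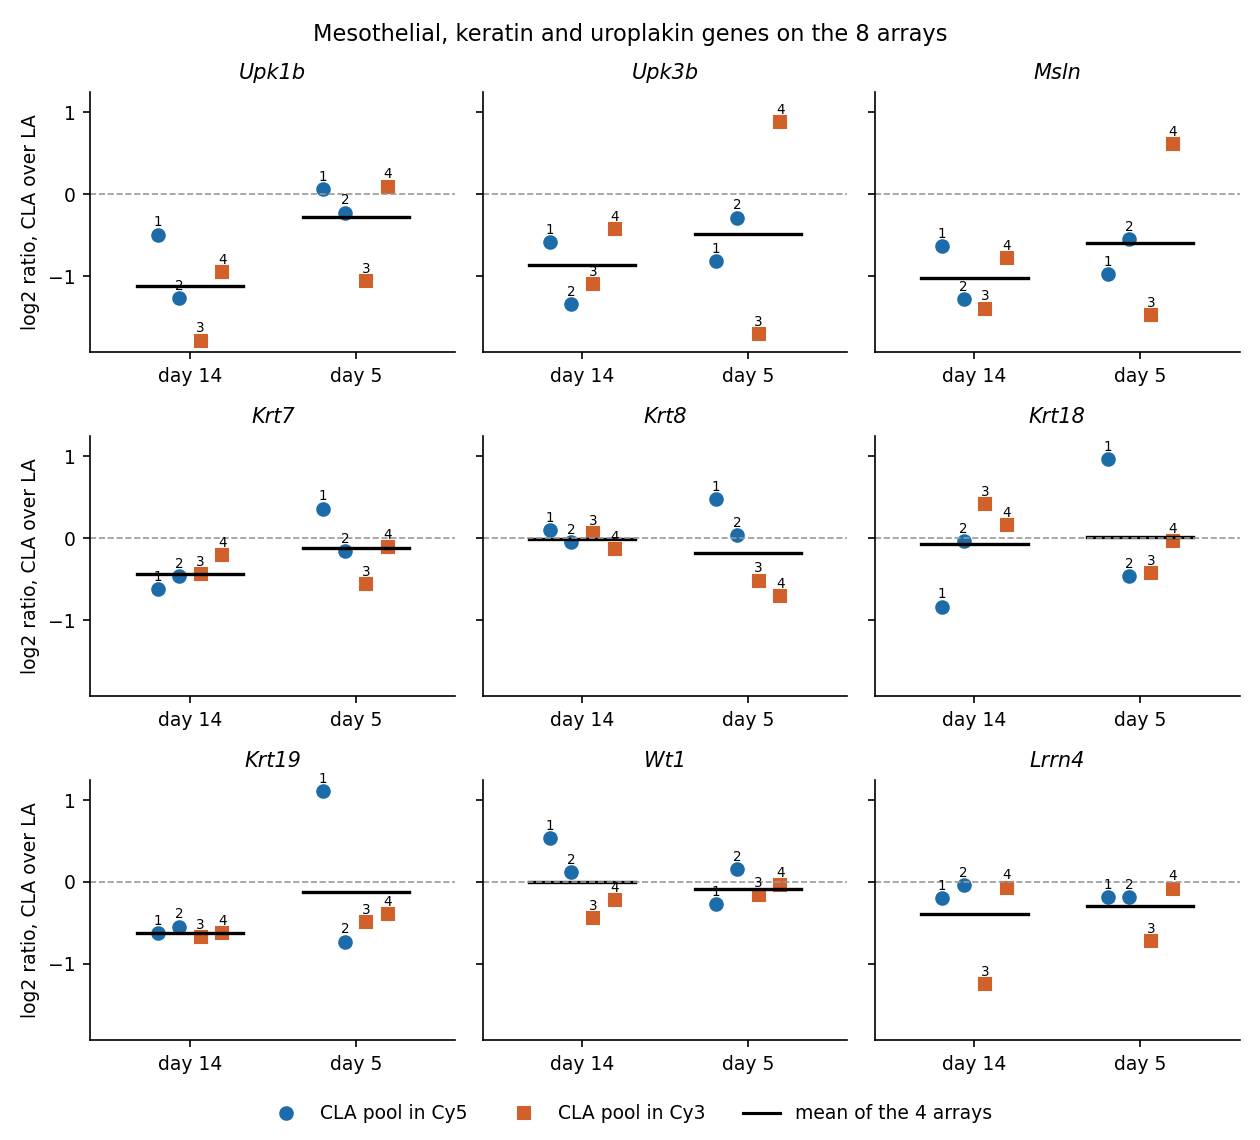
Log2 ratios, CLA over LA, of the 9 genes on the 4 day 14 arrays and the 4 day 5 arrays, numbered by array, with circles for CLA in Cy5, squares for CLA in Cy3 and a bar at the mean. Upk1b, Upk3b, Msln, Krt7, Krt19 and Lrrn4 have all 4 day 14 points below 0, while Krt8, Krt18 and Wt1 have 2 on each side.

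Among the keratins, Krt19 had the most uniform day 14 ratios. They were −0.62, −0.55, −0.68 and −0.62 on arrays 1 to 4, against 1.10, −0.73, −0.49 and −0.39 at day 5. The day 14 values span 0.13 log2 units, whereas at day 5 array 1 lay far above the other 3. The day 14 mean was −0.62 ± 0.05 (SD, n = 4), or 1.53-fold lower in CLA pools. Krt19 fell at day 14 in limma's fit of the day 14 arrays alone (log2 ratio −0.62 ± 0.07 SE, adjusted p = 0.0331), the only one of the 9 called there, where 1.58% of all genes were called. Over all 8 arrays, whose spread includes day 5, it was not called (adjusted p = 0.493).

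Krt7, the type II keratin usually found with Krt19, lay at −0.62, −0.47, −0.44 and −0.21 on the day 14 arrays, against 0.36, −0.15, −0.57 and −0.11 at day 5. Every day 14 array was below 0, and day 5 array 1 was the only array above it. The day 14 mean was −0.44 ± 0.17 (SD, n = 4), 1.35-fold lower, with an unadjusted p = 0.0174 over all 8 arrays (limma), and was not called.

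Krt8, the type II partner of Krt18, stood at 0.10, −0.05, 0.06 and −0.13 at day 14, against 0.48, 0.04, −0.52 and −0.71 at day 5. Its day 14 values lay on both sides of 0 within 0.23 log2 units, with a mean of 0.00 ± 0.10 (SD, n = 4) and a 95% interval from −0.33 to 0.32. At day 5 arrays 1 and 2 were above 0 and arrays 3 and 4 below it, so its sign followed the dye. With arrays 3 and 4 turned, Krt8 was the 1 gene of the 9 called at day 5, at 0.44 (limma, adjusted p = 0.0399), where 13% of all genes were called.

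Krt18 stood at −0.84, −0.03, 0.41 and 0.16 on the day 14 arrays, against 0.96, −0.46, −0.43 and −0.03 at day 5. The arrays of each day disagreed in sign, and the day 14 mean was −0.08 ± 0.54 (SD, n = 4) with a 95% interval from −0.72 to 0.56. That interval, from all 8 arrays, holds the day 14 means of Krt19 and Krt7. With the day 14 arrays alone the interval of Krt18 ran from −0.44 to 0.29, which does not hold the mean of Krt19 and has that of Krt7 at its lower end. The intervals of Krt8 held neither mean, at −0.33 to 0.32 with all 8 arrays and −0.19 to 0.18 with the day 14 arrays alone.

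Krt8 and Krt18 are neighbours on chromosome 15 in RefSeq (GRCm38.p6), with 0 protein-coding genes between them. Promoter windows from 250 bases before to 50 after an annotated start were held for 5 of the 9 genes. That of Lrrn4, at chr2:132880813-132881112 on the minus strand, lay inside the gene, which spans 132866686 to 132894010. Those of Krt8 and Krt18, with day 14 means near 0, are shown beside those of Krt7 and Upk3b, which lay below 0 on all 4 day 14 arrays. The sequences are from RefSeq, build GRCm38.p6, 5′ to 3′ along the gene, at chr5:136038246-136038545, plus strand for Upk3b, chr15:101412153-101412452, plus strand for Krt7, chr15:102004293-102004592, minus strand for Krt8 and chr15:102027966-102028265, plus strand for Krt18. Capitals mark exact matches on either strand to 4 words. They are the TATA box word TATAAA, the GC box word written as GGGCGG, the box named for its letters CCAAT, and the word GCGTGGG, which is a core shared by binding sites of WT1 and EGR proteins.
Upk3b: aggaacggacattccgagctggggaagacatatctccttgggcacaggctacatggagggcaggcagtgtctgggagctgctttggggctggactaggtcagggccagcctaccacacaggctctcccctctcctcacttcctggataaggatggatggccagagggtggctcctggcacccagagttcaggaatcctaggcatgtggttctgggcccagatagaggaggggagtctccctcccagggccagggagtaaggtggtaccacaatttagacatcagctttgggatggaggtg
Krt7: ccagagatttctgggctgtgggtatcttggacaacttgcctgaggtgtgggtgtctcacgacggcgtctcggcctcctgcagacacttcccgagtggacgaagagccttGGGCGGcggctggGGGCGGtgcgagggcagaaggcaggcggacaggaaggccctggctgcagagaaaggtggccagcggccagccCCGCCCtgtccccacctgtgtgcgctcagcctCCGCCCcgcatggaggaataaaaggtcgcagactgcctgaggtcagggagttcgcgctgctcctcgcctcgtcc
Krt8: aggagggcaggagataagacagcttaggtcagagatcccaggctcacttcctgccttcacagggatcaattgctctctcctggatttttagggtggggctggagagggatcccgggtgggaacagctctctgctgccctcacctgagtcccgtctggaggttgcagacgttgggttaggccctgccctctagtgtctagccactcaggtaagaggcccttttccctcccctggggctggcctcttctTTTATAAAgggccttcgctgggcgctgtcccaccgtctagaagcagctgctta
Krt18: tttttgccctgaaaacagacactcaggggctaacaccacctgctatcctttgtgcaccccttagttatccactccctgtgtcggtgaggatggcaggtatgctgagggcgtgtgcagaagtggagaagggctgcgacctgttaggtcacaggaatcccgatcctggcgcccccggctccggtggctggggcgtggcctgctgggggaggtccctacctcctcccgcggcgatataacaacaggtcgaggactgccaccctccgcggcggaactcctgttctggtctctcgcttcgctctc

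The Krt7 window held GGGCGG at 4 places, starting at bases −141 and −128 on the gene's strand and at −56 and −24 on the other, counted from 0 at the annotated start. The Krt8 window held TATAAA on both strands, as overlapping matches that began at −3 and −1. None of the 4 words was found in the windows of Upk3b and Krt18, nor in that of Lrrn4, which lay inside the gene. Over 32851 windows of this length, 35.7% held the GC box word, 13.6% the TATA word, 37.4% the CCAAT word and 5.04% the WT1 and EGR word. The CG dinucleotide occurred 21 times in the Krt7 window, 17 in that of Krt18, 6 in that of Krt8 and 2 in that of Upk3b. These matches are descriptions of the letters and were not related to the ratios by any test.

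Wt1 stood at 0.54, 0.12, −0.44 and −0.23 on the day 14 arrays, against −0.27, 0.15, −0.16 and −0.04 at day 5. At day 14 both arrays with CLA in Cy5 were above 0 and both with CLA in Cy3 below it, so the sign followed the dye and the mean was 0.00 ± 0.43 (SD, n = 4). The 95% interval from the fit of all arrays, which takes a dye effect out of the spread, ran from −0.31 to 0.31.

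Lrrn4, a membrane protein with leucine-rich repeats that marks mesothelial cells, lay at −0.20, −0.04, −1.25 and −0.07 at day 14, against −0.19, −0.19, −0.72 and −0.08 at day 5. It was the only one of the 9 below 0 on all 8 arrays, a count whose share over all genes is not given here. On both days array 3 was far below the other 3. At day 5 it alone of the 9 was below 0 on all 4 arrays, where 3.24% of all genes were. With the dye term removed, Lrrn4 stood above 0 on array 4 of both days, at 0.12 at day 14 and 0.11 at day 5. Its mean was −0.39 ± 0.58 at day 14 (unadjusted p = 0.078) and −0.29 ± 0.29 at day 5 (SD, n = 4; limma, unadjusted p = 0.164). Without array 3 its day 14 ratio in the fit with the dye term was −0.12.

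Counted together, 9 of the 9 genes had a day 14 mean below 0, where 49.7% of all genes did, and 6 were below 0 on all 4 arrays, where 7.06% were. With the dye term removed, 5 of the 9 were below 0 on all 4 day 14 arrays, where 15.7% of all genes were. With arrays 3 and 4 turned, 3 of the 9 (Upk3b, Krt7 and Krt18) had a day 14 mean below 0, where 49.9% of all genes did. The median log2 ratio was −0.44 for the 9 and 0.00 over all genes. In limma's fit of all 8 arrays 0 of the 9 were called at an adjusted p under 0.05, and so were 0% of all genes. At an unadjusted p under 0.05 the fit held 4 of the 9 on the lower side (Upk1b, Msln, Krt7 and Krt19), where 5.53% of all genes lay, and 0 on the higher side.

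The day 14 arrays varied less (residual spread of 0.20 to 0.24 log2 units) than the day 5 arrays (0.24 to 0.56), and limma on all 8 arrays takes 1 spread per gene for both days. With all arrays weighted by quality, limma called Upk1b (adjusted p = 0.0243), Msln (0.0316) and Krt7 (0.0472) at day 14, where 3.54% of all genes were called, but not Krt19 (adjusted p = 0.117). With the day 14 arrays alone Krt19 was called, and Msln (adjusted p = 0.0509), Upk1b (0.0567), Krt7 (0.0683) and Upk3b (0.0812) were not. That single call was lost without any 1 of the 4 day 14 arrays (adjusted p from 0.0583 without array 4 to 0.143 without array 2).

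**Figure D2:**
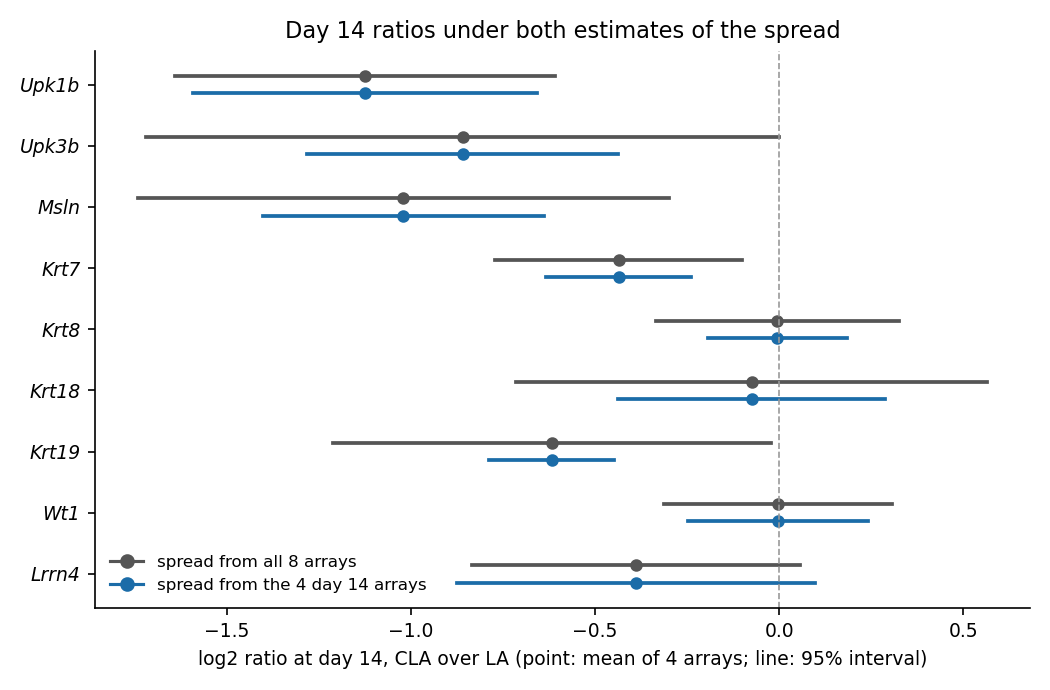
Day 14 log2 ratios, CLA over LA, of the 9 genes (points) with 95% intervals (lines) from limma, in grey with the spread of all 8 arrays and in blue with the spread of the 4 day 14 arrays alone. The intervals of Upk1b, Msln, Krt7 and Krt19 lie below 0 in both, that of Upk3b only in blue, and those of Krt8, Krt18, Wt1 and Lrrn4 include 0.

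At day 5, 8 of the 9 genes had a mean below 0, where 50.3% of all genes did, and the median was −0.18 for the 9 and 0.00 over all genes. limma called 0 of the 9 and 0% of all genes, and 0 of the 9 had an unadjusted p under 0.05, where 13.4% of all genes did. Msln had the lowest mean, −0.59 ± 0.89 (SD, n = 4), and Upk3b the next, −0.48 ± 1.08. Both means rest on arrays that disagree in sign. In limma's fit with its dye term, the day 5 ratios of both moved with the array left out. The fitted ratio of Msln ran from −1.06 without array 4 to −0.22 without array 3. That of Upk3b ran from −0.99 without array 4 to 0.04 without array 3.

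Epididymis and testis markers stood apart on 2 of the day 5 arrays. On array 1 all 14 measured epididymis markers were above 0, from 0.68 to 2.83 with a median of 2.24, whereas their medians on the other 7 arrays ran from −0.46 to −0.03. This was the array on which Krt19 (1.10), Krt18 (0.96), Krt8 (0.48) and Krt7 (0.36) had their highest values, while Msln and Upk3b were below 0 there. A list of 19 other mesothelial markers had a median of −0.02 on it, with 9 above 0. On array 3 all 12 testis germ cell markers were above 0, with a median of 4.07, and Prm1, a sperm nuclear protein, stood at 6.78. All 9 genes were below 0 on array 3, with a median of −0.57, beside −0.06 over all genes. Its weight in the fit weighted by quality was the lowest, at 0.18. The part of epididymis RNA in the keratin ratios, and that of testis RNA in the ratios of the 9, was not tested.

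The day 5 ratio of Krt19 in the fit with the dye term depended on the array left out. It was −0.55 without array 1 (limma, adjusted p = 0.667), 0.19 without array 2, −0.05 without array 3 and −0.09 without array 4. Without array 1 the fitted day 5 ratios were −0.39 for Krt18, −0.35 for Krt8 and −0.28 for Krt7. Without day 5 arrays 1 and 3, a choice made after seeing the data, limma called 2 of the 9 at day 14, Krt19 (adjusted p = 0.0337) and Upk1b (0.0448), where 1.76% of all genes were called. At day 5 that fit called 0 of the 9 and 0% of all genes, and Krt19 alone had an unadjusted p under 0.05, where 10.6% of all genes did. Over the arrays of a day, the median was −0.25 at day 14 and 0.16 at day 5 for the epididymis list, and 0.06 and 1.04 for the testis list. At day 14 the epididymis list had array medians of −0.35, −0.03, −0.25 and −0.06, but single markers lay far from these on both sides. By day 14 mean, 11 of the 14 markers were below 0 and 3 above. In limma's fit of all arrays 2 had an unadjusted p under 0.05 on the lower side (5.53% of all genes) and 0 on the higher. These were Lcn5, a lipocalin of the epididymis, at −1.93 ± 0.81, and Gpx5, its secreted glutathione peroxidase, at −1.68 ± 0.59 (SE), neither called. Both were below 0 on all 4 day 14 arrays, with Lcn5 at −5.03 on array 3 and Gpx5 at −3.47 on array 4. On arrays 1 to 4, 3, 6, 3 and 6 of the 14 were above 0, the highest at 1.78, 1.47, 0.47 and 1.07. The part of epididymis RNA in the day 14 ratios of Krt19 and Krt7 was not tested.

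**Figure D3:**
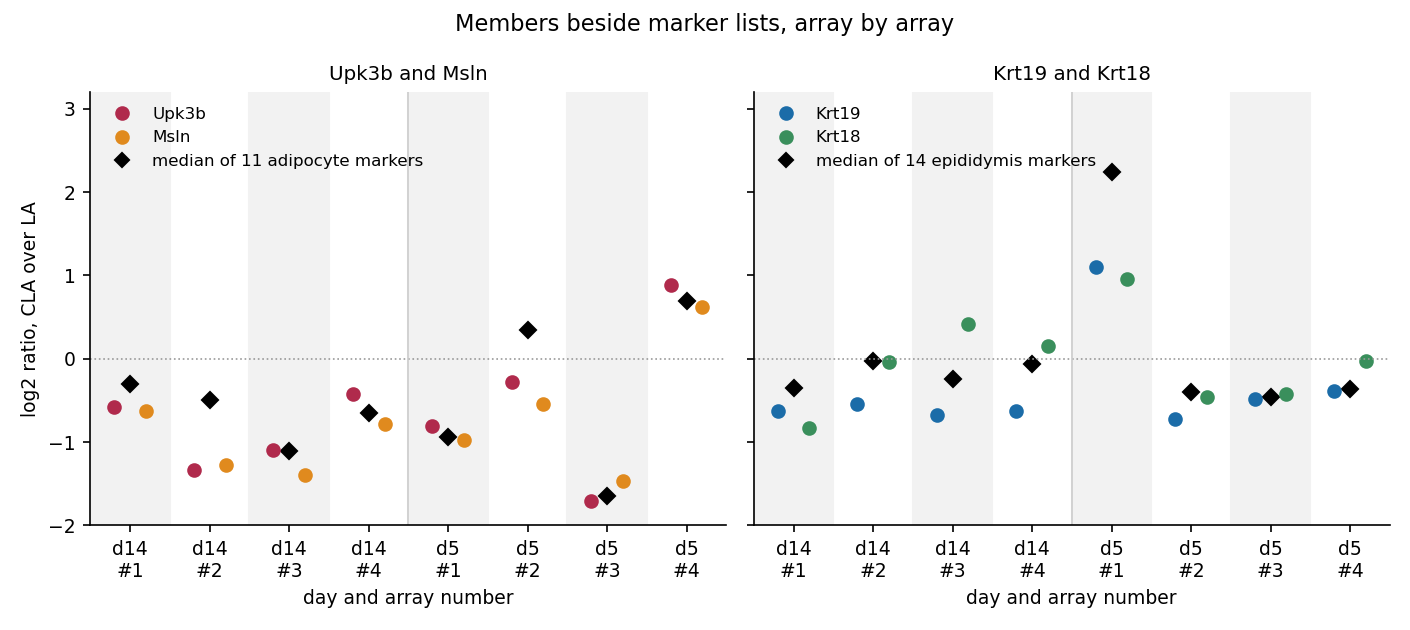
Log2 ratios, CLA over LA, on each array (d14 and d5 for the day, # for the array number) of Upk3b and Msln beside the median of 11 adipocyte markers, and of Krt19 and Krt18 beside the median of 14 epididymis markers. Day 5 array 1 holds the highest Krt19 and Krt18 values (1.10 and 0.96) and an epididymis median of 2.24, and day 5 array 4 holds the highest Upk3b and Msln values (0.88 and 0.62) and an adipocyte median of 0.70.

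The change in ratio from day 5 to day 14 was tested as the difference of the day means. limma called 0 of the 9 and 0% of all genes, and the adjusted p of the 9 was 0.892 or above. Upk1b had the largest difference, −0.84 ± 0.31 (SE), with an adjusted p = 0.892 in limma (unadjusted p = 0.0289). It alone of the 9 was under 0.05 before adjustment, where 4.24% of all genes were. The 4 day 14 values of a gene lay wholly below its 4 day 5 values for 0 of the 9, where they did for 0.303% of all genes. Without day 5 arrays 1 and 3 the differences were −1.16 ± 0.32 for Upk3b, −1.06 ± 0.33 for Upk1b and −1.06 ± 0.35 for Msln (SE), with unadjusted p of 0.00953, 0.0156 and 0.0192 and adjusted p of 0.416, 0.452 and 0.464 (limma). That fit called 0.00606% of all genes, while 9.31% of them reached an unadjusted p under 0.05.

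A further 19 of 20 listed mesothelial markers were measured. At day 14, 15 of them were below 0 and 4 above, with a median of −0.24. With all 8 arrays limma called 0 of them and gave 1 an unadjusted p under 0.05, where 9.77% of all genes had one. This was Igfbp6, a growth factor binding protein, at −0.42 ± 0.17 (SE), with an adjusted p = 0.485 in limma (unadjusted p = 0.041). With the day 14 arrays alone 9 had an unadjusted p under 0.05 on the lower side, where 11.7% of all genes lay, and Efemp1, a matrix glycoprotein, was called at −0.72 ± 0.10 (SE, adjusted p = 0.0469), where 1.58% of all genes were called. Its day 14 arrays stood at 0.14, −0.23, −1.56 and −1.24, lower with CLA in Cy3, and its ratio was 0.68 with arrays 3 and 4 turned. In the fit of all arrays it was not called (adjusted p = 0.612). Bnc1, a zinc finger protein of mesothelium and keratinocytes, stood at −0.33 ± 0.15 and the mucin Muc16 at −0.37 ± 0.17 (SE, fit of all arrays), neither called. The median of the 19 followed the dye: it was 0.03 on both day 14 arrays with CLA in Cy5, and −0.66 and −0.25 on arrays 3 and 4, with CLA in Cy3. With arrays 3 and 4 turned the day 14 median was 0.18.

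The other genes of both families had day 14 medians near 0. The 4 other uroplakins, which build the plaques of the bladder lining or resemble those that do, had day 14 ratios from −0.01 for Upk3bl to 0.17 for Upk3a, with 0.06 for Upk1a and 0.03 for Upk2. None was called in either fit (limma), and 0 had an unadjusted p under 0.05 at day 14, where 9.77% of all genes had one over all arrays. Their array medians were −0.25 and −0.18 with CLA in Cy5 and 0.40 and 0.37 with CLA in Cy3, so their day 14 median was −0.32 with arrays 3 and 4 turned. The 34 other keratins had a day 14 median of 0.01, with 16 below 0 and 18 above. Krt6b, a keratin of stressed skin, was the only one with an unadjusted p under 0.05 there, where 9.77% of all genes had one. It stood at 0.40 ± 0.16 (SE, limma, adjusted p = 0.493), Krt25, a hair root keratin, at 0.22 ± 0.11 and Krt222 at −0.23 ± 0.13.

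**Figure D4:**
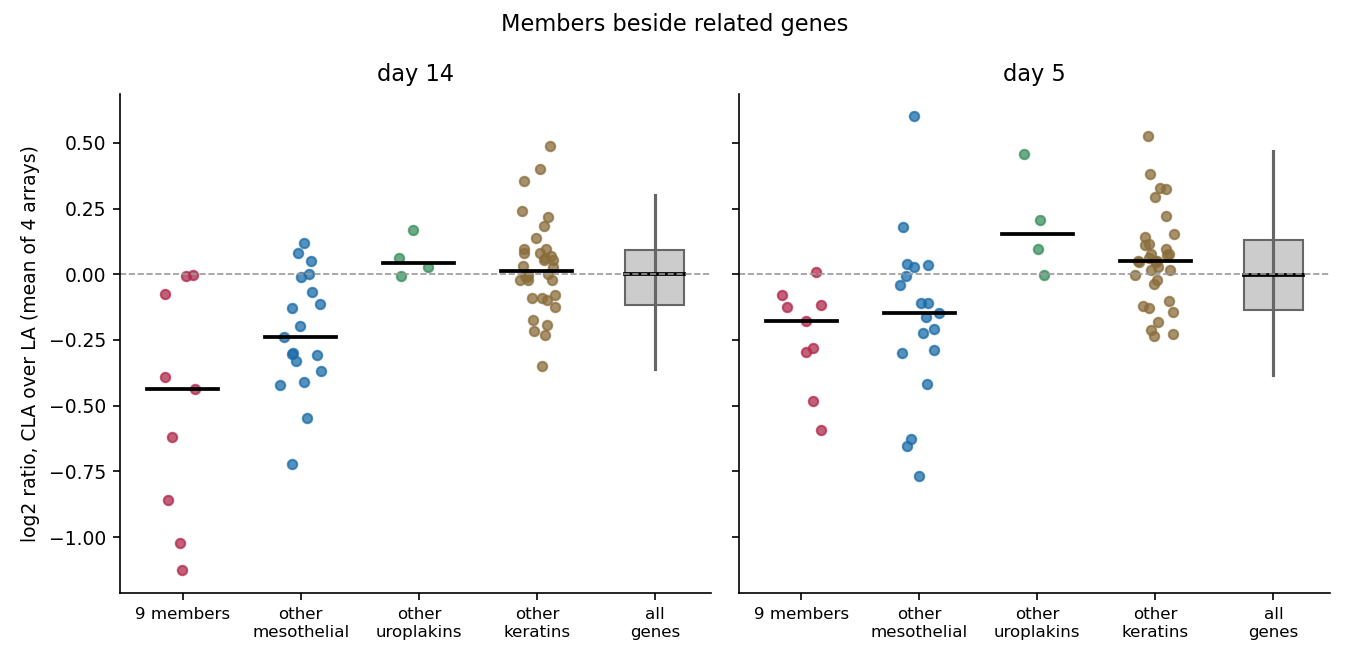
Mean log2 ratios, CLA over LA, of single genes (points) with list medians (black bars) at day 14 and day 5, for the 9 genes, 19 other mesothelial markers, 4 other uroplakins and 34 other keratins, with the median, quartiles and central 90% of all genes as a box with whiskers. The medians at day 14 are −0.44, −0.24, 0.04 and 0.01, beside 0.00 over all genes.

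Other cell types of the fat pad showed different day 14 medians beside the −0.44 of the 9 genes. The median was −0.59 for 11 adipocyte markers, −0.30 for 11 endothelial markers, 0.04 for 10 fibroblast and preadipocyte markers and 0.46 for 10 macrophage markers. With arrays 3 and 4 turned these medians were 0.43, −0.27, 0.39 and 0.28. In limma's fit of the day 14 arrays alone, 2 of the 11 adipocyte markers (Adipoq and Cidec) and 3 of the 11 endothelial markers (Cldn5, Ramp2 and Tie1) were called lower, beside 1 of the 9 genes and 1.58% of all genes called in either direction. In the fit of all arrays, Adipoq stood at −2.03 ± 0.62 and the hormone leptin, Lep, at 0.00 ± 0.10 (SE), the macrophage receptor Adgre1 at 0.84 ± 0.20, the endothelial proteins Cldn5 and Pecam1 at −0.94 ± 0.33 and −0.30 ± 0.21, and the stromal genes Pdgfra and Dcn at 0.10 ± 0.16 and −0.09 ± 0.18.

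Within the 9 genes 2 patterns over arrays could be described. With the dye term removed, 24 of the 36 pairs correlated above 0 and the median r was 0.32 over 8 arrays. The share over other gene pairs is not given here, so that count is not read as a result about the 9. Upk1b, Upk3b and Msln correlated with each other at 0.76 to 0.97, and Krt7, Krt18 and Krt19 at 0.76 to 0.79, groups picked by these r. Krt8 correlated with Krt18, Krt19 and Krt7 at 0.65, 0.40 and 0.32, and with Upk1b, Upk3b and Msln at −0.32, −0.31 and −0.49. By r with Krt18, Krt19 ranked at place 704 and Krt7 at place 839 of 16503 genes. The 2 patterns were not wholly apart. Between a gene of the first and a gene of the second, r ran from −0.17 (Msln and Krt18) to 0.64 (Upk1b and Krt7). It was 0.01 and 0.00 for Krt19 with Upk3b and Msln, and 0.44 for Krt19 with Upk1b. Lrrn4 correlated with Upk1b, Upk3b and Msln at 0.59 to 0.65. Between Wt1 and Krt18 r was −0.90. The 5 genes outside the 9 most like their mean were Thoc2 (r = 0.99), Adsl (0.97), Mlst8 (0.97), Trim25 (0.97) and Adprm (0.97), over the 8 arrays with the dye term removed. These r take no account of size, and the day 14 ratios of the 5 ran only from −0.13 (Mlst8) to −0.03 (Thoc2). With the dye kept, r for Adsl was −0.08. Of the 9 themselves, Upk1b was most like their mean (r = 0.89, place 88 among all genes), and Krt8 (−0.06) and Wt1 (−0.09) least. That mean includes each of the 9, so genes with wide ratios weigh more in it and these r are not independent of it.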

How the data were processed

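RNA of CLA-fed and LA-fed mice was compared directly on 8 arrays. The authors deposited 1 value per probe and array, taken here as log10 ratios of the 2 channels, a base inferred from the values. If they were log2 already, log2 values would be 3.32 times smaller and p-values would stand. Scanner, background correction and normalization: not given in the sources used here. Intensities were not used here. Values were multiplied by 3.32, and column medians near 0 were left as deposited. All 8 columns were used, as CLA over LA. This reading was taken over from earlier work on these data, in which the day 14 sign of Ucp1 had been seen. Of 22393 probes, 18218 had 1 gene symbol, 16 several and 4159 none. A gene was the mean of its probes, which gave 16504 genes, and each of the 9 genes had 1 probe.

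The log2 values of all genes went into limma 3.58.1 under R 4.3.3 (lmFit and eBayes; day means and a dye term; Benjamini-Hochberg over all genes), a step tested on simulated data. No filter on dim spots was possible. Members, lists and tests were chosen with earlier results of these data known. The 8 lists were the 9 genes, other mesothelial, adipocyte, macrophage, endothelial, fibroblast and preadipocyte, epididymis and testis markers, besides all other keratins and uroplakins. Genes named outside the 9 followed a rule: the smallest day 14 p of each related list, genes called in any fit, defining markers, and the 5 most alike; Upk3bl, Cidec, Ramp2 and Tie1 were picked out after their values were seen. Alternatives were each day alone, array weights, no dye term, array number as a block, arrays 3 and 4 turned, median centring, the log2 scale, probes for genes, and each array left out.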

Additional observations from a re-analysis of the deposited data

Results flagged for a closer look

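Lrrn4 had 1 array far from the other 3 on each day. On day 14 array 3 it stood at −1.25, while the other 3 lay between −0.20 and −0.04, a gap of 0.871 of the whole range. On day 5 array 3 it stood at −0.72, while the other 3 lay between −0.19 and −0.08, a gap of 0.832 of the range. Both exceed the 95% critical value of Dixon's test for 4 values, which chance gives in about 1 of 20 groups. Of the 18 groups examined (9 genes on 2 days) 2 passed. Both array 3 samples had CLA in Cy3, as had array 4 of each day, where Lrrn4 stood at −0.07 at day 14 and −0.08 at day 5.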

How the results depend on the processing

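The day 14 count of called genes among the 9 was 0 with all arrays, 1 with the day 14 arrays alone, 3 with array weights and 2 without day 5 arrays 1 and 3. It was 0 under the other settings. The cause was not tested, beyond the smaller spread of the day 14 arrays. Turning arrays 3 and 4 gave a median of 0.034 at day 14 (−0.44 as read) and of 0.20 at day 5 (−0.18 as read), called 1 gene at day 5 and left 1 of the 9 with an unadjusted p under 0.05 on each day, where 31.8% of all genes had one at day 14 and 33.2% at day 5. Taking the values as log2 gave a day 14 median of −0.13. For the difference between days, 2 of the 9 had an unadjusted p under 0.05 with array weights (7.35% of all genes), and 3 without day 5 arrays 1 and 3, a fit in which 1 did at day 5. Leaving out each array in turn gave 1 to 4 such genes at day 14, 0 to 3 at day 5 and 0 to 3 for the difference. The share of all genes in these fits is not given here, so the counts are not read as a result about the 9. The median difference of the 9 ran from −0.48 to 0.035 and was above 0 only without day 5 array 4. Leaving out an array kept 0 of the 9 called with all other arrays. With the day 5 arrays alone and array 4 left out, limma called 2 of the 9, where 6.6% of all genes were called. These were Msln (adjusted p = 0.0269) and Upk3b (0.0330). With the array number as a replicate block, 3 of the 9 had an unadjusted p under 0.05 at day 5 (Upk1b, Msln and Lrrn4; 11.2% of all genes), 6 did at day 14 (8.43%) and 0 were called on either day. Deviations of same-numbered arrays correlated at 0.36 to 0.64 with the dye kept, which they share, and at −0.38 to 0.02 with it removed. Among 8 arrays 4 correlated best with their own number, so the number was not taken as a pairing. Median centring, removal of the dye term and probes in place of genes changed no call. Signal over background could not be examined.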
